A study of Mus musculus with 14 samples.

Results

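Ribosome biogenesis and nucleolar genes were followed in embryonic blood that carried the Cbfb-MYH11 fusion or lacked Cbfb. The set was a list of 45 genes given by name, and 1 probe set stood for each gene, that of the highest average signal over the 14 arrays. Of the 45, 44 had a probe set under their symbol (all but Mrto4) and 42 were bright enough to be tested, among 18194 genes on the array and 7393 tested. Tcof1 and Ddx10 stayed under the filter, a log2 value of at least 6 on at least 3 arrays. Of the tested members, 4 (Nop14, Pes1, Rrp12 and Tsr1) passed it with no wild-type array at 6, and 6 (the same 4 with Ltv1 and Utp20) had under 3 arrays at 6 outside the Cbfb+/MYH11 group. Rrs1, Polr1b and Rrp1b also had under 3 wild-type arrays at 6 and passed only with mutant arrays counted. The place of all these members among the tested genes already rested on higher mutant levels, so their part in the counts that follow is no support for a rise.

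Ribosome production begins in the nucleolus, where RNA polymerase I transcribes the ribosomal RNA precursor. Small nucleolar RNA particles of the box C/D type methylate this precursor, particles of the box H/ACA type convert uridines to pseudouridine, and large assemblies then cut and fold it into the small and large ribosomal subunits. Growing and dividing cells make many ribosomes, maturing red cells wind this production down, and MYC is a known activator of many of these genes through the E-box sequence CACGTG.

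The study set blood with the fusion, a leukaemia gene that joins the core binding factor subunit Cbfb to a smooth muscle myosin heavy chain, beside blood with no Cbfb. Cbfb-MYH11 chimeras were bred with C57/Bl6 females, which gave Cbfb+/MYH11 embryos (4 arrays) and their wild-type littermates, called WT (4 arrays). A separate intercross of Cbfb+/- mice gave Cbfb-/- embryos (3 arrays) and Cbfb+/+ littermates (3 arrays). Peripheral blood was taken at E12.5 and pooled from 8 to 10 embryos of a genotype, so no array stands for a single animal. Sample titles name the arrays of each genotype as technical replicates, so p-values measure only the spread between these arrays, which may be technical.

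All values are log2 RMA expression values, so 1 unit is a doubling of signal. Array medians over all 45101 probe sets lay between 4.27 and 4.46, and the number of arrays, not a read depth, limits the precision. In the Cbfb+/MYH11 cross, arrays 1 and 2 of each genotype stood apart from arrays 3 and 4, in the mutant and in WT, and results that rest on these arrays are given within each pair too. The alpha-fetoprotein gene Afp shows the split: it read 5.71, 5.77, 8.20 and 8.27 on the Cbfb+/MYH11 arrays and 11.97, 11.86, 6.33 and 6.20 on the WT arrays. Late erythroid genes were bright in every group, with list medians per array of 10.76 to 12.15.

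The promoters are shown first, because the E-box is a sequence by which such genes are known to share a regulator. RefSeq promoter sequences (build GRCm38.p6, 250 bases before to 50 after a start site) matched 39 of the 45 members. CACGTG, which reads the same on both strands, lay in the promoters of 10 of these 39 genes (25.6%), against 12.7% of 6054 tested genes and 8.09% of 27025 genes with a promoter. The RUNX core TGTGGT or its reverse complement ACCACA lay in 3 (Heatr1, Nop56 and Pes1; 7.69%), against 14.5% and 18.9%. These matches are a description of letters in a window, not of a bound site.

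The 10 E-box matches are printed below in windows of up to 20 bases, 5′ to 3′ on the gene's strand, with the CACGTG in capitals, and they show that the flanking bases differ from gene to gene. The windows of Imp4 (chr1:34439701-34439720, plus strand), Nop2 (chr6:125131816-125131835, plus) and Utp18 (chr11:93885774-93885793, minus) lie upstream of the start site, with the first base of the motif at -121, -60 and -20. In the other 7 windows the motif lies within the first 50 transcribed bases: Grwd1 (chr7:45830743-45830762, minus), Ltv1 (chr10:13193097-13193116, minus), Mybbp1a (chr11:72441360-72441376, plus), Pes1 (chr11:3963970-3963989, plus), Tsr1 (chr11:74898097-74898116, plus), Utp20 (chr10:88826765-88826784, minus) and Wdr43 (chr17:71616225-71616244, plus).
Imp4: cttagacCACGTGacatccc
Nop2: cctggatCACGTGtgttccg
Utp18: cgccggtCACGTGgcttgcg
Grwd1: ggagtcgCACGTGtgaaacc
Ltv1: gtggaccCACGTGtggagct
Mybbp1a: ctgagccCACGTGtttg
Pes1: ggcagggCACGTGcgggagg
Tsr1: tggtgcaCACGTGgactgca
Utp20: ctaactaCACGTGaggaaaa
Wdr43: gggcgaaCACGTGgctgccg

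The 250 bases upstream of Imp4 (chr1:34439579-34439828) and Nop2 (chr6:125131633-125131882), both on the plus strand, are given in full as a pair chosen after their values were seen: both carry the E-box upstream, Imp4 rose in Cbfb+/MYH11 blood and Nop2 was called in neither mutant.
Imp4: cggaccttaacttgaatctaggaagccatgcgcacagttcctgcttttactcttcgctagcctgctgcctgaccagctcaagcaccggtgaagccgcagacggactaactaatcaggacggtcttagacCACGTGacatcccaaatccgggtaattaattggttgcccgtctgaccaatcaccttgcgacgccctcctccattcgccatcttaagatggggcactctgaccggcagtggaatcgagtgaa
Nop2: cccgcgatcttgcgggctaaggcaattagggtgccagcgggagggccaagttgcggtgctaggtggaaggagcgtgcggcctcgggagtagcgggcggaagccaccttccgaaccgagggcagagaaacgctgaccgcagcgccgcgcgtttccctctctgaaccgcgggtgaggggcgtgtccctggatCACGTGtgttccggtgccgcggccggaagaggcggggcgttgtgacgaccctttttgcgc

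Ribosome biogenesis genes were higher in the blood of both mutants than in that of their littermates. In Cbfb+/MYH11 against WT, 30 of 42 tested members rose, where rose means at least 1.5-fold higher with a limma p below 0.05 after Benjamini-Hochberg adjustment over all tested genes. This set the members beside a background of 30.5% of all 7393 genes called higher in the same comparison. No member fell (0 of 42; 0 lower at an unadjusted p under 0.05 in limma), against 5.63% of all genes. The members' median log2 change was 0.91, against 0.26 for all tested genes, and 38 of the 42 lay above that all-gene median.

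In Cbfb-/- against Cbfb+/+, 26 of 42 rose and 0 fell (0 lower at an unadjusted p under 0.05 in limma), against 19.5% of all genes higher and 6.65% lower. The median log2 change was 0.69, against 0.13 for all tested genes, and 41 of 42 members lay above the all-gene median, the exception being Nob1. The group means of the 2 comparisons share no array, but both come from 1 fit with a spread and a filter shared over all groups. Of the members, 23 rose in both, which is 76.7% of those that rose in Cbfb+/MYH11 and 88.5% of those that rose in Cbfb-/- blood, and 10.4% of all genes rose in both. Another 7 (Gar1, Imp3, Imp4, Nip7, Nop14, Polr1a and Tsr1), were called in the Cbfb+/MYH11 comparison and not the other, and 3 (Npm1, Polr1b and Wdr43) the other way round, and none of these 10 was called in the test of the difference between the mutants. The remaining 9, called in neither, were Ddx56, Grwd1, Nob1, Nop2, Rrp1b, Rrp9, Utp15, Utp18 and Utp20.

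The counts depended on the scale and on the unit of replication. With quantile normalization, which moves the median change of all genes from 0.26 to -0.02 in Cbfb+/MYH11 and from 0.13 to -0.04 in Cbfb-/- blood, 21 and 17 members rose, against 17.7% and 13.6% of all genes, and 0 fell in either, against 14.1% and 12.2%. Of the members, 14 rose in both on that scale, against 5.17% of all genes. The calls lost were those of Bms1, Bop1, Gar1, Heatr1, Imp3, Imp4, Mybbp1a, Nop10 and Nop14 in Cbfb+/MYH11 blood, and of Bms1, Bop1, Gnl3, Nop10, Polr1b, Polr1c, Rrs1, Wdr12 and Wdr43 in Cbfb-/- blood. With the mean of all probe sets of a gene, 24 and 22 members rose and 0 fell, against 22.6% and 14.6% of all genes higher and 4.23% and 5.6% lower. That setting ended the calls of Bop1, Ebna1bp2, Heatr1, Nop16 and Wdr12 in both mutants, of Imp4, Pes1 and Polr1a in Cbfb+/MYH11 and of Ddx18 in Cbfb-/- blood, and added Npm1 and Wdr43 in the former and Tsr1 and Utp15 in the latter. With arrays averaged to 6 putative pools, 0 members were called by limma in either comparison, while 21 and 4 were higher at an unadjusted p under 0.05, against 24.3% and 2.49% of all genes. In that fit Cbfb-/- and Cbfb+/+ hold 1 pool each, so the null comparison has no spread of its own there and borrows that of the fusion cross, as if lone pools varied alike.

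**Figure D1:**
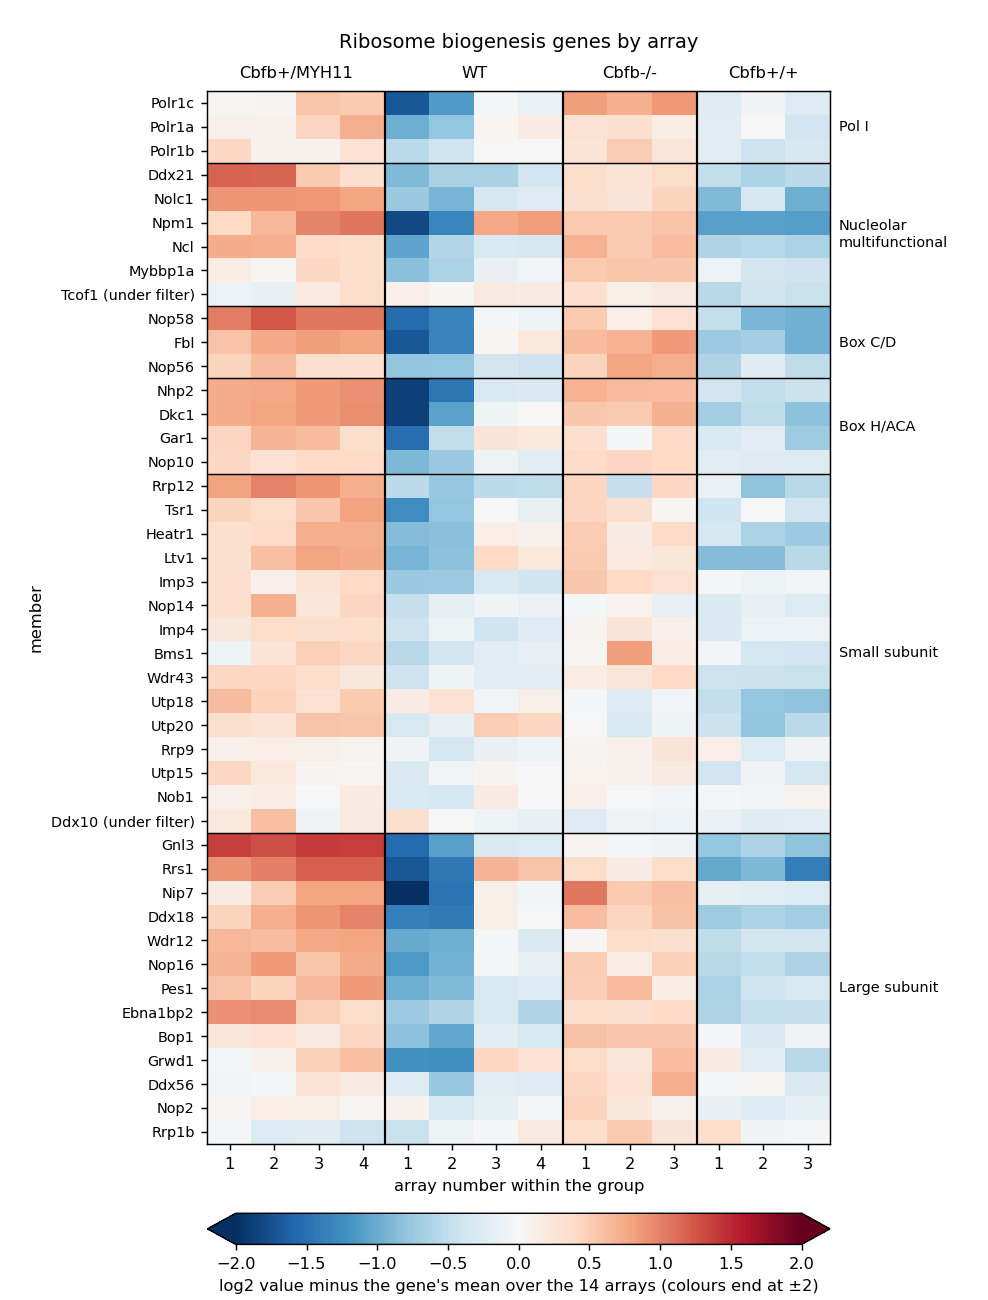
Log2 value of each of the 44 members with a probe set (rows, grouped by role) on each of the 14 arrays (columns, grouped by genotype), minus the gene's mean over the 14 arrays; red is higher and blue lower, and colours end at 2 either way. Most rows are red on the Cbfb+/MYH11 and Cbfb-/- arrays and blue on WT arrays 1 and 2 and on the Cbfb+/+ arrays, while WT arrays 3 and 4 lie between.

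Array by array, the median over the 42 tested members stood at 7.32, 7.48, 7.53 and 7.45 for Cbfb+/MYH11, while WT arrays had 5.90, 6.14, 6.91 and 6.91. The Cbfb-/- arrays stood at 7.14, 7.12 and 7.16 and the Cbfb+/+ arrays at 6.52, 6.45 and 6.26. Every mutant array lay above every array of its littermates, and WT arrays 3 and 4 lay nearest to the mutant. For single genes, 32 of 42 members had every Cbfb+/MYH11 array above every WT array, against 39.5% of all genes, and 37 of 42 had every Cbfb-/- array above every Cbfb+/+ array, against 44.3%.

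Among the RNA polymerase I subunits, 2 of 3 rose in each mutant (2 and 0 with quantile normalization). Polr1c, a subunit that RNA polymerases I and III share, read 7.21, 7.25, 7.75 and 7.71 in Cbfb+/MYH11 blood and 5.50, 6.06, 7.15 and 7.06 in WT, a log2 change of 1.04 ± 0.30 (SE; adjusted p = 0.00926). It rose by 1.00 ± 0.35 in Cbfb-/- blood as well (adjusted p = 0.0340), where all 3 arrays lay above the littermates, but not with quantile normalization (adjusted p = 0.0691) or without any 1 array of that cross (adjusted p up to 0.0843). Polr1a, the largest subunit, read 6.15, 6.14, 6.49 and 6.79 against 5.08, 5.29, 6.10 and 6.23 in the fusion cross, and 6.37, 6.38 and 6.21 against 5.84, 6.07 and 5.68 in the null cross. The Cbfb+/MYH11 and WT arrays of Polr1a overlapped; its change was 0.72 ± 0.24 (adjusted p = 0.0192), and the call ended with the mean of its probe sets (0.05, adjusted p = 0.580) or without WT array 1 or 2 or Cbfb+/MYH11 array 4, and in Cbfb-/- blood it was 0.46 ± 0.28 (adjusted p = 0.185). Polr1b, the second-largest subunit, read 6.56, 6.23, 6.23 and 6.43 against 5.60, 5.74, 6.14 and 6.14, and 6.42, 6.66 and 6.39 against 5.93, 5.72 and 5.81. No mutant array of Polr1b overlapped its littermates, yet the change of 0.46 ± 0.13 in Cbfb+/MYH11 blood was under 1.5-fold (adjusted p = 0.0103), and the change of 0.67 ± 0.16 in Cbfb-/- blood was called (adjusted p = 0.00581), though not without Cbfb-/- array 2. Polr1b passed the filter only with mutant arrays counted, so its call is no support for a rise.

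Of the nucleolar proteins with several functions, 4 of 5 tested rose in Cbfb+/MYH11 blood and 5 of 5 in Cbfb-/- blood (3 and 5 with quantile normalization). Ncl, nucleolin, an abundant protein that binds ribosomal RNA precursors, read 10.73, 10.71, 10.36 and 10.33 in Cbfb+/MYH11 blood, against 8.92, 9.40, 9.68 and 9.65 for WT. In the null cross it read 10.67, 10.50 and 10.60 against 9.38, 9.41 and 9.35. The groups of Ncl did not overlap in either cross, and the changes were alike in size, 1.12 ± 0.15 (2.18-fold, 95% interval 1.73 to 2.74; adjusted p = 5.88e-05) and 1.21 ± 0.18 (2.31-fold, 1.77 to 3.02; adjusted p = 4.77e-04). Ddx21, a nucleolar RNA helicase, read 7.89, 7.89, 7.24 and 7.05 against 5.83, 6.07, 6.07 and 6.33 (1.44 ± 0.18, adjusted p = 2.49e-05), and 7.07, 6.99 and 7.09 against 6.22, 6.08 and 6.19 (0.89 ± 0.20, adjusted p = 0.00553). Nolc1, a chaperone of small nucleolar RNA particles, rose by 1.42 ± 0.16 and 1.08 ± 0.18 (adjusted p = 1.34e-05 and 0.00112). Mybbp1a, a nucleolar repressor of MYB and other factors, rose by 0.65 ± 0.16 and 0.84 ± 0.19 (adjusted p = 0.00373 and 0.00475), and its call in Cbfb+/MYH11 blood was lost without either of WT arrays 1 and 2.

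Npm1, nucleophosmin, a nucleolar chaperone of ribosome assembly that is often mutated in acute myeloid leukaemia, showed the array pairs most plainly. It read 9.67, 9.93, 10.27 and 10.35 on the Cbfb+/MYH11 arrays and 7.47, 7.97, 10.04 and 10.11 on the WT arrays. The groups overlapped, with WT arrays 3 and 4 above the lowest mutant arrays, and the change of 1.16 ± 0.49 was not called (adjusted p = 0.0533; 0.0255 with the replicate number as a block). Within arrays 1 and 2 it was 2.08, and within arrays 3 and 4 it was 0.23 (adjusted p = 0.144). In the null cross Npm1 read 9.80, 9.79 and 9.83 against 8.19, 8.19 and 8.17, a change of 1.62 ± 0.56 (3.08-fold, 1.33 to 7.15; adjusted p = 0.0338). The model shares 1 spread over the 4 groups; the SD of Npm1 was 1.38 in WT and at most 0.025 in the null cross, where a fit of that cross alone gave an adjusted p of 1.90e-06. Leaving out any single array of the null cross ended the call, with an adjusted p of up to 0.0768.

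The box C/D proteins all rose, 3 of 3 in both mutants. Fbl, fibrillarin, the methyltransferase of these particles, read 9.31, 9.49, 9.58 and 9.54 in Cbfb+/MYH11 blood, against 7.04, 7.41, 8.78 and 8.96 for WT. Its Cbfb-/- arrays read 9.37, 9.44 and 9.60 against 8.01, 8.06 and 7.78. Neither pair of groups overlapped, with changes of 1.43 ± 0.34 (2.70-fold, 1.62 to 4.50; adjusted p = 0.00300) and 1.52 ± 0.39 (2.87-fold, 1.59 to 5.17; adjusted p = 0.00975). Nop56, a core scaffold of the particle, read 8.26, 8.44, 8.14 and 8.15 against 7.02, 7.04, 7.45 and 7.40, and 8.26, 8.60 and 8.54 against 7.21, 7.58 and 7.31. Its groups did not overlap, and it rose by 1.02 ± 0.13 and 1.10 ± 0.15 (adjusted p = 3.45e-05 and 3.14e-04). Nop58, the paralogous scaffold, read 7.62, 7.83, 7.64 and 7.64 against 5.05, 5.27, 6.55 and 6.49, and 7.10, 6.71 and 6.88 against 6.11, 5.66 and 5.63. It rose by 1.84 ± 0.29 (3.58-fold, 2.30 to 5.57; adjusted p = 1.86e-04) and by 1.10 ± 0.34 (adjusted p = 0.0210), the latter lost without Cbfb-/- array 1 or 3 or Cbfb+/+ array 2 or 3. The difference between these Nop58 effects, 0.74 ± 0.45, was not called (adjusted p = 0.248).

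All 4 box H/ACA proteins rose in Cbfb+/MYH11 blood and 3 of 4 in Cbfb-/- blood (2 and 2 with quantile normalization). Dkc1, dyskerin, the pseudouridine synthase that also stabilises telomerase RNA, read 8.24, 8.30, 8.35 and 8.43 against 5.63, 6.43, 7.42 and 7.50 in WT. The Cbfb-/- arrays of Dkc1 read 8.05, 8.02 and 8.21 against 6.80, 6.99 and 6.69. Both mutants lay clear of their littermates, by 1.59 ± 0.31 (3.01-fold, 1.88 to 4.81; adjusted p = 8.72e-04) and 1.27 ± 0.36 (2.41-fold, 1.40 to 4.15; adjusted p = 0.0151). Nhp2, an RNA-binding subunit, read 9.23, 9.26, 9.34 and 9.41 against 6.62, 7.04, 8.17 and 8.19, and 9.18, 9.12 and 9.10 against 8.11, 8.00 and 8.06. The mutant arrays of Nhp2 were nearly level while WT spread over more than 1 log2 unit, and the changes were 1.80 ± 0.28 and 1.08 ± 0.33 (adjusted p = 1.57e-04 and 0.0186; the latter lost without Cbfb-/- array 1 or Cbfb+/+ array 2). Nop10, the smallest subunit, rose by 0.86 ± 0.15 and 0.66 ± 0.17 (adjusted p = 3.22e-04 and 0.00968), neither of them with quantile normalization. Gar1, a further core subunit, rose by 0.91 ± 0.31 in Cbfb+/MYH11 blood (adjusted p = 0.0226), a call that leaving out WT array 1 or Cbfb+/MYH11 array 2 or 3 ended, and changed by 0.64 ± 0.36 in Cbfb-/- blood (adjusted p = 0.161).

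The small subunit group had the lowest medians of the 6 roles: 8 of 14 tested members rose in Cbfb+/MYH11 blood, with a median log2 change of 0.60, and 5 of 14 in Cbfb-/- blood, with a median of 0.50. With quantile normalization 3 rose in each, a share near the 17.7% and 13.6% of all genes on that scale. Of the 8, Rrp12, Tsr1, Ltv1 and Nop14 were tested only through higher mutant levels, so their calls are no support for a rise. The 3 that rose in Cbfb+/MYH11 blood with quantile normalization (Rrp12, Tsr1 and Ltv1) were all of this kind, as were Rrp12 and Ltv1 in Cbfb-/- blood. Rrp12, which takes part in the export and maturation of both subunits, read 6.12, 6.31, 6.20 and 6.04 against 4.79, 4.56, 4.79 and 4.80, without overlap. It rose by 1.43 ± 0.19 (2.69-fold, 2.03 to 3.57; adjusted p = 4.36e-05). Its null arrays read 5.74, 4.86 and 5.73 against 5.17, 4.50 and 4.76, which overlap, with a change of 0.63 ± 0.22 (adjusted p = 0.0330) that leaving out Cbfb-/- array 1 or 3 or Cbfb+/+ array 2 or 3 ended. Nop14, a scaffold of the small subunit processome, read 6.24, 6.61, 6.15 and 6.32 against 5.43, 5.71, 5.82 and 5.76, and 5.86, 5.97 and 5.73 against 5.61, 5.76 and 5.63. It rose in Cbfb+/MYH11 blood by 0.65 ± 0.11 (adjusted p = 3.84e-04; not with quantile normalization, nor without Cbfb+/MYH11 array 2 or WT array 1), and its null groups overlapped, with a change of 0.19 ± 0.13 (adjusted p = 0.252).

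Of the other small subunit members, Tsr1, a GTPase-like factor of late maturation, rose by 1.08 ± 0.23 in Cbfb+/MYH11 blood (adjusted p = 0.00136), and Heatr1 and Ltv1 rose in both mutants, by 0.91 and 0.92 and by 0.90 and 1.08. Imp3 and Imp4, subunits of a complex that pairs the precursor with its guide RNA, rose in Cbfb+/MYH11 blood by 0.82 and 0.61, where Imp4 lost its call without WT array 1 or 3. Bms1, a GTPase of the processome, rose by 0.60 in both mutants, calls that single arrays of either cross could end. Wdr43 changed by 0.58 ± 0.09 in Cbfb+/MYH11 blood, just under 1.5-fold (adjusted p = 1.23e-04), and rose by 0.70 ± 0.10 in Cbfb-/- blood (adjusted p = 4.44e-04). Rrp9, which binds the guide RNA of the processome, read 7.82, 7.86, 7.84 and 7.80 against 7.66, 7.39, 7.58 and 7.65, and 7.78, 7.83 and 7.98 against 7.85, 7.45 and 7.66. Its fusion arrays lay above WT by a small margin (0.26 ± 0.10, under 1.5-fold), and its null groups overlapped (0.21 ± 0.11, adjusted p = 0.134). Nob1, the endonuclease that makes the last cut of the small subunit RNA, read 7.62, 7.68, 7.54 and 7.70 against 7.23, 7.20, 7.70 and 7.52, and 7.64, 7.52 and 7.47 against 7.50, 7.47 and 7.61. Both crosses overlapped for Nob1, with changes of 0.22 ± 0.11 and 0.02 ± 0.12 (adjusted p = 0.0875 and 0.925; 95% intervals -0.01 to 0.46 and -0.25 to 0.28).

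Large subunit factors rose in 9 of 13 tested members in Cbfb+/MYH11 blood, with a median log2 change of 1.24, and in 8 of 13 in Cbfb-/- blood, with a median of 0.71 (8 and 4 rose with quantile normalization). Gnl3, nucleostemin, a nucleolar GTPase of stem and dividing cells, had the largest change of the set in the fusion cross. It read 9.24, 9.17, 9.27 and 9.26 on the Cbfb+/MYH11 arrays and 6.32, 6.78, 7.58 and 7.61 on the WT arrays. The lowest fusion array stood more than 1 log2 unit above the highest WT array, and the change was 2.16 ± 0.23 (4.47-fold, 3.18 to 6.28; adjusted p = 7.66e-06). In the null cross it read 7.93, 7.84 and 7.79 against 7.11, 7.26 and 7.07, without overlap, a change of 0.71 ± 0.26 (1.64-fold, 1.10 to 2.42; adjusted p = 0.0435). That null call was lost with quantile normalization, with no filter, and without any 1 of the 10 arrays other than WT, with an adjusted p of up to 0.109.

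Rrs1, a factor of early large subunit assembly, read 7.56, 7.66, 7.86 and 7.86 against 4.95, 5.23, 7.34 and 7.23, and 7.03, 6.82 and 7.03 against 5.63, 5.76 and 5.28. WT arrays 3 and 4 stood far above WT arrays 1 and 2 and just under the mutant, and the changes were 1.55 ± 0.45 and 1.40 ± 0.52 (adjusted p = 0.00956 and 0.0436). The null call of Rrs1 was lost without any 1 of the 10 arrays other than WT (adjusted p up to 0.120). Rrs1 passed the filter only with mutant arrays counted, so its calls are no support for a rise. Nip7, which acts in the processing of both subunits, read 7.10, 7.45, 7.73 and 7.72 against 4.57, 5.46, 7.05 and 6.87, and 7.98, 7.46 and 7.54 against 6.75, 6.73 and 6.67. It rose by 1.51 ± 0.43 (adjusted p = 0.00863) in Cbfb+/MYH11 blood, and in the null cross its groups were apart but its change of 0.94 ± 0.50 was not called (adjusted p = 0.134). Ddx18, an RNA helicase, read 7.56, 7.83, 7.99 and 8.10 against 5.75, 5.70, 7.23 and 7.12, and 7.74, 7.55 and 7.70 against 6.41, 6.49 and 6.41. It rose by 1.42 ± 0.30 and by 1.23 ± 0.35 (adjusted p = 0.00149 and 0.0153), with no overlap in either cross.

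The 3 subunits of the PeBoW complex, which is needed for processing of the large subunit RNA, rose in both mutants: Pes1 by 1.24 and 0.87, Bop1 by 0.89 and 0.69, and Wdr12 by 1.29 and 0.65 (adjusted p from 6.36e-05 to 0.0285 over these 6 tests), and the null call of Wdr12 was lost without any 1 of 5 arrays of its cross. With quantile normalization Bop1 was called in neither mutant (0.53 and 0.46) and Wdr12 not in Cbfb-/- blood (0.51, adjusted p = 0.0608), and with the mean of all probe sets Pes1 in Cbfb-/- blood was the 1 call of these 6 left. Pes1 passed the filter with no wild-type array at 6, so its calls are no support for a rise. Ebna1bp2 and Nop16, further nucleolar assembly factors, rose by 1.24 and 0.86 and by 1.28 and 0.94. Nop2, a methyltransferase of the large subunit RNA, read 7.07, 7.19, 7.17 and 7.07 against 7.14, 6.72, 6.86 and 7.01, which overlap (0.19 ± 0.10, adjusted p = 0.126). Its null arrays, 7.51, 7.27 and 7.14 against 6.90, 6.77 and 6.87, did not overlap, and the change of 0.46 ± 0.12 was under 1.5-fold (adjusted p = 0.00950). Rrp1b, a nucleolar protein, was the only tested member with a negative change in Cbfb+/MYH11 blood: it read 5.67, 5.43, 5.45 and 5.28 against 5.25, 5.62, 5.66 and 5.87. Its groups overlapped there (-0.14 ± 0.14, adjusted p = 0.387) and in the null cross, where it read 6.05, 6.22 and 5.95 against 6.04, 5.62 and 5.66 (0.30 ± 0.16, adjusted p = 0.145). Of the members under the filter, Tcof1, which links polymerase I to precursor processing, read 5.66 to 6.16 in Cbfb+/MYH11, 5.82 to 5.97 in WT, 5.92 to 6.13 in Cbfb-/- and 5.24 to 5.41 in Cbfb+/+ blood, and Ddx10, an RNA helicase, stayed between 5.20 and 6.06 on all 14 arrays.

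**Figure D2:**
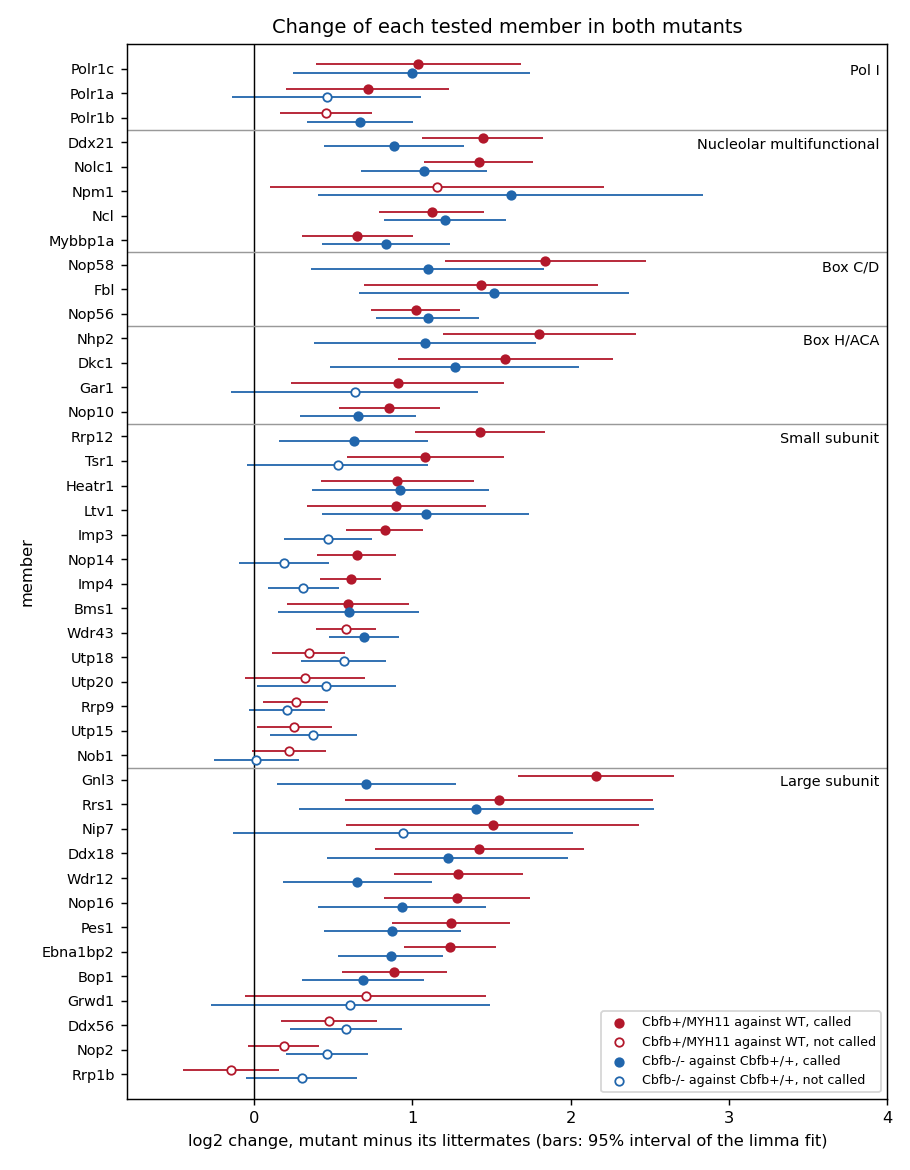
Log2 change of each tested member (rows, grouped by role) in Cbfb+/MYH11 against WT (red) and in Cbfb-/- against Cbfb+/+ (blue); bars are 95% intervals of the limma fit and filled points passed the test. All points but that of Rrp1b in red lie above 0, and the red point of Gnl3 at 2.16 lies farthest out.

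**Figure D3:**
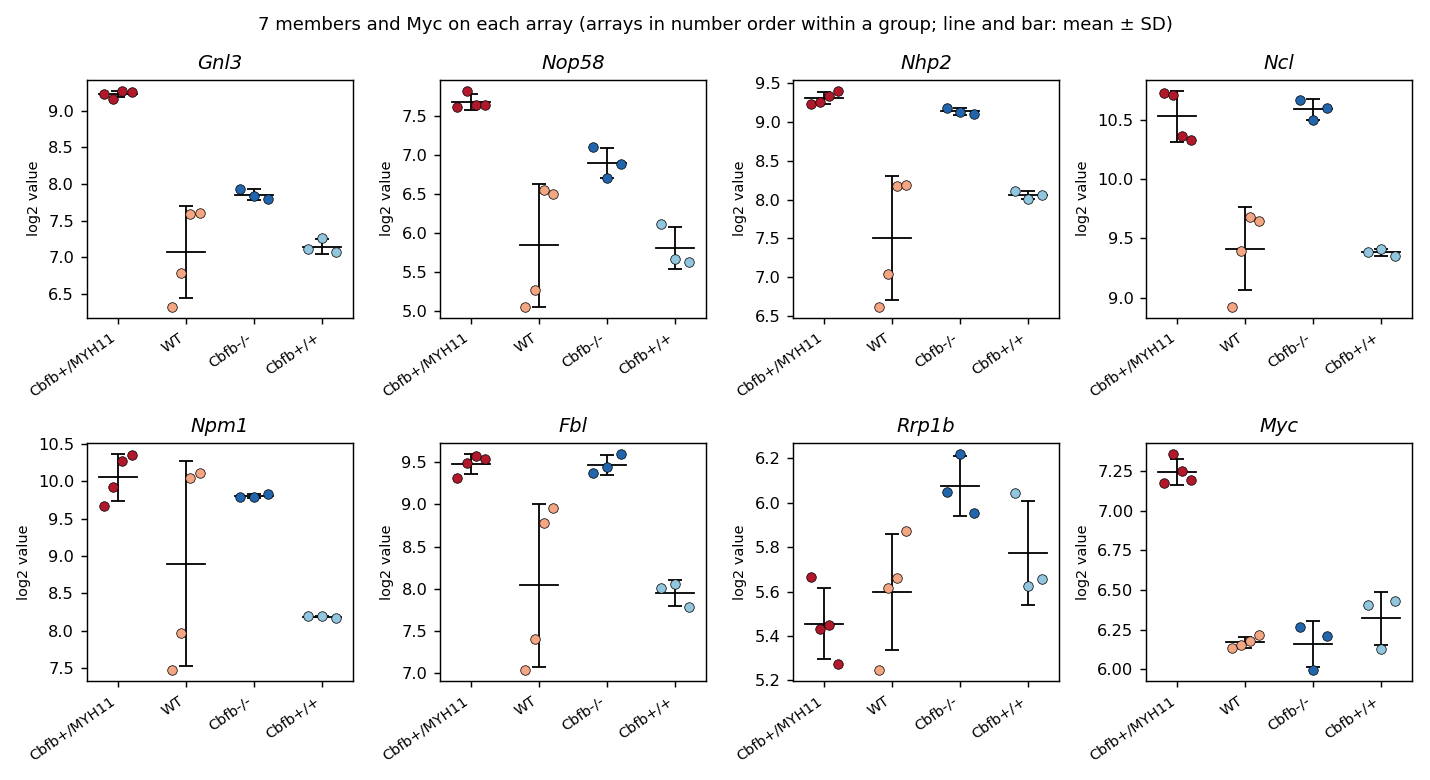
Log2 values of 7 members and Myc on each array (points) in the 4 groups, with the group mean (line) and SD (bars); each panel has its own axis range, which does not start at 0. The 2 upper and 2 lower WT points of Gnl3, Nop58, Nhp2, Npm1 and Fbl are arrays 3 and 4 and arrays 1 and 2, and Myc is high in the Cbfb+/MYH11 group alone.

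Changes in the fusion cross differed between the array pairs. Within arrays 1 and 2, 32 of 42 members rose and 0 fell (37% and 7.63% of all genes; 40 higher and 0 lower at an unadjusted p under 0.05 in limma), with a median log2 change of 1.33 against 0.31 for all genes. Within arrays 3 and 4, 22 rose and 0 fell (24.6% and 6.44% of all genes; 32 and 1 at an unadjusted p under 0.05), with a median of 0.62 against 0.20, and 20 members rose within both pairs, against 20.8% of all genes. Of the members that rose over all arrays, 10 (Bms1, Bop1, Gar1, Imp4, Ltv1, Mybbp1a, Nop10, Nop14, Polr1a and Rrs1) did not rise within both.

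In a test of the difference between the pairs, added after the data were seen, the change of 21 of 42 members was smaller in arrays 3 and 4, against 15.2% of all genes, and that of 0 was larger (0 at an unadjusted p under 0.05 in limma; 4.34% of all genes). Rrs1, Npm1, Nip7 and Fbl differed most, by -1.94, -1.85, -1.49 and -1.49 (adjusted p = 1.84e-05, 1.40e-05, 0.00465 and 9.50e-05). All 3 box C/D and all 4 box H/ACA members were among the 21, and 1 of 14 small subunit members was, Ltv1. For 37 of 42 members WT arrays 1 and 2 both lay below WT arrays 3 and 4, as did 48.9% of all genes, and the exceptions were Nop2, Wdr43, Rrp9, Utp18 and Imp4. Rrp12, by contrast, changed by 1.54 and 1.32 in the pairs, and Gnl3 by 2.65 and 1.67.

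**Figure D4:**
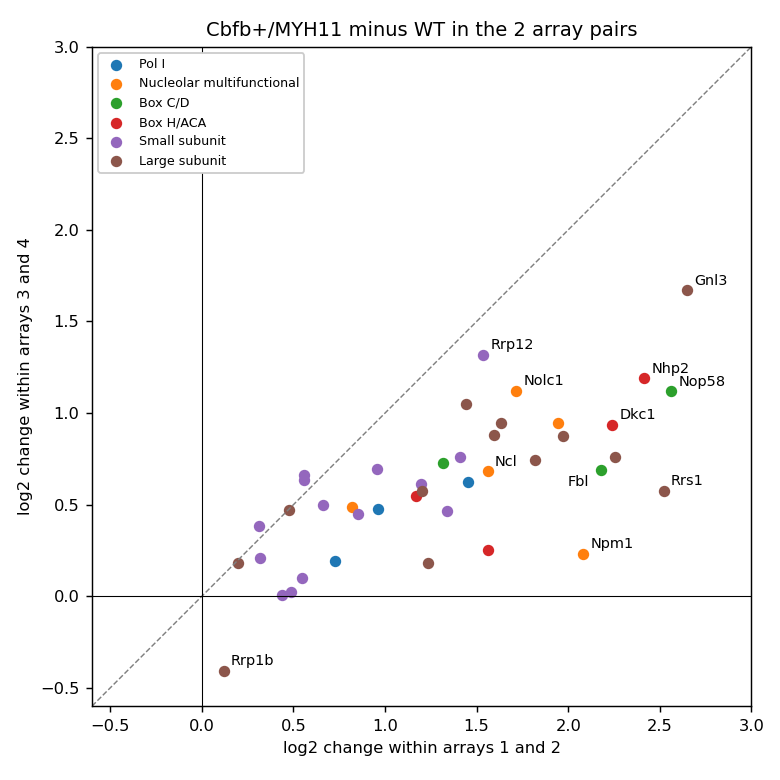
Log2 change of each tested member, Cbfb+/MYH11 minus WT, within arrays 1 and 2 (horizontal axis) and within arrays 3 and 4 (vertical axis), coloured by role; the dashed line marks equal changes. Most points lie below the line, Npm1 at 2.08 and 0.23 and Rrs1 at 2.52 and 0.58 far below it, and Rrp12 at 1.54 and 1.32 near it.

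Gnl3 was the 1 member whose change differed between the mutants. The difference of the effects, Cbfb+/MYH11 minus Cbfb-/-, was 1.45 ± 0.35 (2.73-fold, 1.62 to 4.59; adjusted p = 0.00800), among 14.9% of all genes with a larger and 6.07% with a smaller change in Cbfb+/MYH11 blood. No member had a smaller change in the fusion (0; 0 at an unadjusted p under 0.05 in limma). The median difference over the members was 0.20, against 0.09 for all tested genes. Rrp12 came next in adjusted p (0.80 ± 0.29, adjusted p = 0.0587; 0.0404 with the replicate block, which raises the count of members called from 1 to 2), and Nop14, Wdr12 and Imp4 also had an unadjusted p under 0.05. For Npm1, whose difference was -0.46 ± 0.74, the 95% interval of -2.07 to 1.14 spans a wide range, so these arrays do not settle whether it changed alike in the mutants. With no filter, Tcof1 was called with a smaller change in the fusion (-0.72, adjusted p = 0.0156), from a rise of 0.67 in Cbfb-/- blood and a change of -0.04 in Cbfb+/MYH11 blood.

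The 2 wild types, which carry no altered Cbfb allele but come from different crosses, were closer on average, with a median log2 change of 0.07. WT itself was split: the member medians of the Cbfb+/+ arrays were 6.26 to 6.52. These lay between WT arrays 1 and 2 (5.90 and 6.14) and WT arrays 3 and 4 (both 6.91). In Cbfb+/+ against WT, 0 of 42 members rose (2 higher at an unadjusted p under 0.05 in limma, Bop1 and Imp3; 5.48% of all genes rose), and 2 fell (5.76% of all genes). Those 2, a share near that of all genes, were the processome subunits Utp18 and Utp20. Utp18 read 5.58, 5.29 and 5.27 in Cbfb+/+ and 6.23, 6.38, 6.02 and 6.18 in WT blood, without overlap (-0.82 ± 0.12, adjusted p = 3.42e-04). Utp20 read 5.43, 5.08 and 5.34 against 5.54, 5.70, 6.35 and 6.30 (-0.69 ± 0.19, adjusted p = 0.0176), a call lost without WT array 3 or 4 or Cbfb+/+ array 2. Both were also lower in Cbfb-/- than in Cbfb+/MYH11 blood: Utp18 at 5.80 to 6.02 against 6.37 to 6.70, and Utp20 at 5.56 to 5.88 against 6.14 to 6.43.

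Further probe sets of the same genes that passed the filter gave the same directions. Those under the filter were not tested singly, and they can go another way. With the mean of all its probe sets, Polr1a changed by 0.05 in Cbfb+/MYH11 blood, against 0.72 for the probe set used. Of 18 further probe sets that passed the filter, for 17 members, all 18 changed in the direction of the probe set used in both comparisons, and 16 and 15 rose and 0 fell. Calls differed in 8 cases. Further probe sets of Npm1 (1.32) and Wdr43 (1.35) were called in Cbfb+/MYH11 blood and those of Grwd1 (0.79) and Tsr1 (1.29) in Cbfb-/- blood, where the ones used were not. Those of Nolc1 in Cbfb+/MYH11 blood (0.49, adjusted p = 0.108), and of Ddx18 (0.34, adjusted p = 0.262), Dkc1 (1.04, adjusted p = 0.153) and Polr1c (0.56, adjusted p = 0.0655) in Cbfb-/- blood, were not called where the ones used were. The second Bms1 probe set rose by 1.38 and 1.28, against 0.60 and 0.60 for the one used.

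A wider list of 128 other ribosome biogenesis genes, chosen with earlier results of these data known, was counted beside them. Of the 91 tested, 62 rose and 1 fell in Cbfb+/MYH11 blood, against 30.5% and 5.63% of all genes, with a median of 0.83 against 0.26. In Cbfb-/- blood 34 rose and 0 fell, against 19.5% and 6.65%, with a median of 0.50 against 0.13 (43 and 21 rose with quantile normalization, against 17.7% and 13.6%). By class, the exosome and RNase MRP genes, which trim and cut precursor RNA, had 14 and 10 of 18 risen, the small subunit genes 22 and 12 of 32, the large subunit genes 22 and 10 of 35, and the polymerase I genes and their factors 4 and 2 of 6. The largest changes in Cbfb+/MYH11 blood were those of Exosc8, an exosome subunit (1.90), Esf1 (1.75) and Brix1, a large subunit assembly factor (1.55). In Cbfb-/- blood they were those of Pop4, a subunit of RNase MRP (1.47), Rrn3, the initiation factor of polymerase I (1.45), and Pno1 (1.41). At the low end stood Utp6, which fell in Cbfb+/MYH11 blood (-0.80, adjusted p = 0.00298), Nat10, an RNA acetyltransferase (-0.48), and Rpf2 (-0.24), and in Cbfb-/- blood Noc2l (-0.33), Rpf2 (-0.23) and Sbds (-0.21), which were not called. In the test of the difference, 10 of the 91 had a larger change in Cbfb+/MYH11 blood and 0 a smaller one. Of all genes, 14.9% had a larger and 6.07% a smaller change, so the 10 are no excess over that share.

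Myc, the activator named above, differed between the mutants. It read 7.17, 7.36, 7.25 and 7.19 in Cbfb+/MYH11 blood, against 6.14, 6.16, 6.18 and 6.21 for WT, without overlap. Its change was 1.07 ± 0.09 (adjusted p = 1.13e-06), with 1.12 and 1.03 within the pairs and 0.78 with quantile normalization. In the null cross it read 6.27, 5.99 and 6.21 against 6.40, 6.13 and 6.43, which overlap (-0.16 ± 0.10, adjusted p = 0.210), and the difference of the effects was 1.24 ± 0.14 (adjusted p = 3.14e-05).

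Of the 9 tested genes of the MYC and MAX network (12 listed), 2 rose and 1 fell in Cbfb+/MYH11 blood, against 30.5% and 5.63% of all genes. In Cbfb-/- blood 0 rose and 2 fell, against 19.5% and 6.65%. With quantile normalization it was 1 and 3 (17.7% and 14.1% of all genes), and 0 and 2 (13.6% and 12.2%). In neither mutant did a larger share of this list rise than of all genes. Mlx, a partner of the MondoA family, rose in Cbfb+/MYH11 blood (0.80, adjusted p = 5.30e-05), though not with quantile normalization (0.53), changed by -0.18 in Cbfb-/- blood, and differed between the mutants (0.98, adjusted p = 8.95e-04). Mxd1, which opposes MYC at E-boxes, fell in both: it read 6.95 to 7.72 against 8.39 to 9.13 in the fusion cross, and 7.22, 7.21 and 7.20 against 8.31, 8.26 and 8.37 in the null cross. Its groups did not overlap in either cross, with changes of -1.37 ± 0.19 and -1.10 ± 0.22 (adjusted p = 6.34e-05 and 0.00251). Mxi1, of the same family, fell in Cbfb-/- blood (-0.66, adjusted p = 8.31e-04) and changed by -0.40 in Cbfb+/MYH11 blood, under 1.5-fold (-0.69 and called with quantile normalization, as was Mnt at -0.71). The others, Max, Mnt, Mxd3, Mxd4 and Mycn, were not called in either comparison, with changes from -0.45 to 0.09.

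Promoters with and without the E-box were found among risen and uncalled members. Of the 10 tested members with CACGTG in the promoter, 5 rose in Cbfb+/MYH11 blood (Imp4, Ltv1, Mybbp1a, Pes1 and Tsr1) and 4 in Cbfb-/- blood, and of the 27 with a promoter and no match, 21 and 17 rose. Ltv1, Pes1 and Tsr1, and without a match Nop14 and Polr1b, passed the filter only with mutant arrays counted. Their calls are no support for a rise. Among all tested genes with a promoter, 30.0% and 19.1% of the 766 with the motif rose, and 31.1% and 19.4% of the 5288 without it. Nop2, Utp18, Utp20 and Grwd1, whose windows are printed above, were called in neither mutant. Gnl3, Nop58 and Nhp2, with the largest changes in the fusion cross, had no CACGTG in the windows searched.

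Other gene lists changed with the members or against them. Of 26 tested cell cycle genes, 24 rose in Cbfb+/MYH11 and 14 in Cbfb-/- blood, against 30.5% and 19.5% of all genes. The median changes of these genes were 1.60 and 0.94. Their median level per array was 9.12 to 9.26 in Cbfb+/MYH11, 6.74, 6.86, 8.10 and 8.10 in WT, 8.52 to 8.80 in Cbfb-/- and 7.76 to 7.87 in Cbfb+/+ blood, so the WT pairs split here as they did for the members. Of the list, Tyms alone stayed below 6 on every array. Late erythroid genes had negative median changes, -0.44 in Cbfb+/MYH11 and -0.43 in Cbfb-/- blood. They fell in 5 of 11 tested and rose in 1 in the former, and fell in 4 of 11 in the latter. Of all genes, 5.63% and 6.65% fell. In bulk blood, fewer cells of a type and less RNA per cell cannot be told apart.

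Markers of other cell types differed between the groups as well. Platelet genes fell in 8 of 12 tested (1 rose) and in 11 of 12, and macrophage genes in 7 of 10 and in 10 of 10. Of all genes, 5.63% and 6.65% fell. Summed levels of both lists were lower in Cbfb+/MYH11 than in WT blood on arrays 1 and 2 and higher on arrays 3 and 4. For macrophage genes the latter were 10.17 and 10.18 against 9.67 and 9.65 (log2). The list medians were lower in the mutant in both pairs. Liver or visceral endoderm genes fell in 4 of 7 in Cbfb+/MYH11 (5.63% of all genes) and rose in 5 of 7 in Cbfb-/- blood (19.5%). Their summed level (log2) went opposite ways in the array pairs of the fusion cross. On arrays 1 and 2 it was 8.31 and 8.18 in Cbfb+/MYH11 against 12.33 and 12.32 in WT. On arrays 3 and 4 it was 9.98 and 10.01 against 8.57 and 8.64. In the null cross it was 12.21 to 12.33 in Cbfb-/- and 10.88 to 10.91 in Cbfb+/+ blood. Neural genes rose in 3 of 8 and in 8 of 8, against 30.5% and 19.5% of all genes, the former near its background. Their median change was 3.92 in Cbfb-/- blood, where their summed level was 11.56 to 11.69 against 8.45 to 8.56 in Cbfb+/+. In the fusion cross the sum was 9.34 to 10.84 against 8.16 to 9.75. The markers below 6 on every array were Gp6, Cd68, Cd163, Amn and Pax6. The part of cell cycle, maturation state and other cell types in the levels of the ribosome biogenesis genes was not tested.

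**Figure D5:**
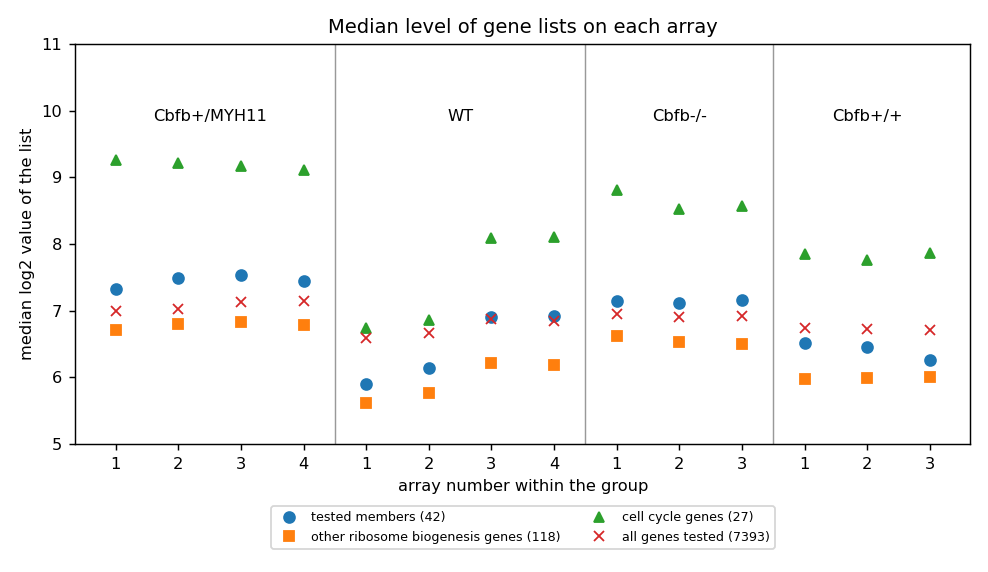
Median log2 value on each of the 14 arrays (horizontal axis, by group) of the 42 tested members, 118 other ribosome biogenesis genes, 27 cell cycle genes and all 7393 genes tested. Members, other ribosome biogenesis genes and cell cycle genes are lowest on WT arrays 1 and 2 and highest on the Cbfb+/MYH11 arrays, and the all-gene median moves the same way over a smaller range, 6.59 to 7.15.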

How the data were processed

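RNA of pooled embryonic blood was hybridised to 14 Affymetrix mouse expression arrays, 5 µg labelled for each. The authors deposited log2 values made by RMA in Affymetrix Expression Console, per the submitters' processing notes, with versions not given in the sources used here. Symbols came from the platform annotation: 34958 of 45101 probe sets had 1 symbol, 932 several and 9211 none. Of those with 1, 34754 matched a RefSeq gene ID. The probe set with the highest mean stood for a gene, and genes at log2 6 or more on at least 3 arrays were tested (7393). The deposited log2 values were fitted with limma 3.58.1 in R 4.3.3 (4 groups in 1 model, 10 residual degrees of freedom, prior 2.81), with Benjamini-Hochberg adjustment over all tested genes. Calls needed at least a 1.5-fold change and an adjusted p below 0.05. The script was tested on simulated data.

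The members and all gene lists were chosen with earlier results of these data known. Given array by array are the 8 members with the largest change in each mutant, the 4 with the largest difference between the mutants, the 3 with the smallest change in each, and Ncl, Npm1, Fbl, Nop56, Dkc1, Polr1a and Polr1b. Polr1c and the wild-type difference of Utp18 and Utp20 were added after their values were seen. Of the wider list, the 3 highest and 3 lowest genes per mutant are named, and of the MYC network all tested genes. The promoters of Imp4 and Nop2 and the E-box windows were also chosen afterwards, and protein sequences were not used here.

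Arrays with the same replicate number deviated together in the Cbfb+/MYH11 cross (correlations over genes 0.521, 0.407, 0.499 and 0.499), and the labels name no shared litter or day. Numbers 1 and 2, and 3 and 4, also deviated together (other pairings down to -0.526). Within such a pair the numbers were not told apart: Cbfb+/MYH11 array 4 with WT array 3 gave 0.514. The split into arrays 1 and 2 and arrays 3 and 4 was taken from the data alone. The main fit held no pairing term, and the replicate block, an alternative, set the number over the arrays of both crosses. For Cbfb-/- and Cbfb+/+ the same-number correlations came to 0.034, 0.011 and 0.017, and no split was taken. Alternatives were quantile normalization, median centring, other filters, the mean of all probe sets, the replicate block, averaging to 6 putative pools, each pair alone, each cross alone and leaving out each array.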

Additional observations from a re-analysis of the deposited data

Results flagged for a closer look

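Gnl3 changed more in Cbfb+/MYH11 than in Cbfb-/- blood, each against its littermates, by 1.45 on the log2 scale in the test of the difference (adjusted p = 0.00800 in limma). Among groups of 4 arrays, 3 member values stood far from the others of their group. Nop58 read 7.83 on Cbfb+/MYH11 array 2, against 7.62, 7.64 and 7.64. Rrp12 read 4.56 on WT array 2, against 4.79, 4.79 and 4.80. Ddx56 read 5.52 on WT array 2, against 6.02, 6.03 and 6.06. Chance marks about 1 in 20 such groups, and groups of 3 arrays were not examined.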

How the results depend on the processing

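Under the alternatives run, 0 members fell in either mutant. Averaging to 6 putative pools left 0 members called by limma as risen in Cbfb+/MYH11 (21 at an unadjusted p under 0.05; lowest adjusted p 0.0774), 0 in Cbfb-/- (4; 0.654), 0 in the difference of the mutants (0; 0.653) and 0 as fallen in Cbfb+/+ against WT (1, Utp18; 0.848), in a fit with 2 degrees of freedom, both from the Cbfb+/MYH11 cross. Quantile normalization gave 21 risen in Cbfb+/MYH11 and 17 in Cbfb-/- with a median of 0.53; over all genes it moved the split of higher to lower calls from 2255 and 416 to 1307 and 1043, and from 1443 and 492 to 1008 and 904. A filter at log2 7, with 28 members, raised the median in Cbfb-/- to 0.91 and left 0 fallen between the wild types (Utp18 and Utp20 were not in that fit). Within arrays 1 and 2 the median in Cbfb+/MYH11 was 1.33. In the difference, centring the arrays and the replicate block each called 2 (Rrp12 added), and no filter gave 1 fallen (Tcof1). The mean of all probe sets gave 24 and 22 risen, and 1 fallen between the wild types. Beyond Npm1 (called) and Rrp12, the replicate block changed no call in either mutant or their difference. Leaving out 1 array gave 24 to 33 risen in Cbfb+/MYH11 (median 0.73 to 1.11), 18 to 28 in Cbfb-/- (0.68 to 0.76), 1 to 2 in the difference (-0.04 to 0.33), and between the wild types 0 to 1 risen and 1 to 2 fallen (-0.02 to 0.19). It ended the call of 6 of 30 and 10 of 26. The causes were not tested, except where a member was absent from a fit. Quantile normalization, both array pairs, every array left out and the mean of all probe sets together kept 6 members risen in both mutants (Ddx21, Dkc1, Fbl, Ncl, Nolc1 and Nop56), and the pools kept 0. For these settings together, and for leaving out arrays, the share of all genes was not counted. Those member counts therefore have no background to be read against.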
